A study of Solanum lycopersicum with 6 samples.

Results

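miR160, miR390 and miR393 are plant microRNAs (miRNAs) that act on auxin signalling, as does miR167. They were described here in green-stage fruit of tomato (Solanum lycopersicum), from every row of the deposited count table named for one of these families. The rule gave 6 mature miRNAs of 137 in the table: sly-miR160a, both arms of the miR390a precursor (sly-miR390a-5p and sly-miR390a-3p), both arms of the miR390b precursor (sly-miR390b-5p and sly-miR390b-3p), and sly-miR393. The species prefix is left out below. In RefSeq's gene table (assembly SLM_r2.1) all 6 matched a precursor gene, and the 4 precursors (MIR160a, MIR390a, MIR390b and MIR393) lie on different chromosomes. The drought group had 3 libraries from fruit of plants whose pots received diluted liquid fertilizer a single time each week after flowering. The control group had 3 libraries from fruit of plants whose pots received the diluted fertilizer on 1 day and water on the next, in alternation. The drought plants were thus given fertilizer, and not only water, at longer intervals. All plants shared the greenhouse conditions (12 h of light at 25 °C, 12 h of dark at 20 °C) and fertilizer diluted 500-fold. Until flowering all were watered in the same way. The labels name no cultivar and do not tell whether each library is a separate plant, so the p-values refer to the spread between libraries, part of which may be technical. The table holds miRNAs only, so the tissue label could not be checked against marker genes of fruit.

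Auxin is perceived by TIR1-type F-box receptors, which bring about the degradation of Aux/IAA repressors and so release auxin response factors (ARFs), the transcription factors that control auxin-responsive genes. In plants miR160 guides cleavage of the mRNAs of repressive ARFs of the ARF10, ARF16 and ARF17 type. miR390, bound to the Argonaute protein AGO7, cuts the non-coding TAS3 transcript and so triggers the trans-acting small RNAs that repress ARFs of the ARF2, ARF3 and ARF4 type. miR393 acts one step earlier and guides cleavage of the mRNAs of TIR1 and its AFB relatives. miR167, another auxin-linked family, targets ARFs of the ARF6 and ARF8 type. In tomato, this signalling controls fruit set and early fruit growth.

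These 6 miRNAs were minor components of the green fruit libraries. Total counts over all listed miRNAs ran from 430732 to 468711 in drought libraries and from 644434 to 749332 in control libraries. Of these the 6 took 227, 204 and 234 counts in drought libraries 1 to 3, against 211, 188 and 241 in control libraries 1 to 3. That was 0.0512%, 0.0435% and 0.0543% of all miRNA counts under drought, against 0.0319%, 0.0292% and 0.0322% in control. The summed share was thus higher in each drought library than in any control library. Such a separation on library totals was also seen for 25.3% of the 99 miRNAs with enough counts to test. Most of the sum was miR160a, at 53.7% to 69.7% of the counts of the 6. Levels are given below as CPM, the count of a miRNA per 1e+06 counts after TMM scaling, which corrects each total for differences in composition. On that scale the sum of the 6 was 604, 322 and 547 CPM under drought, against 351, 291 and 334 CPM in control, and the groups overlapped at drought library 2. Its TMM factor was 1.35, the highest of the 6 libraries. A single count was worth 1.58 to 2.66 CPM in drought libraries and 1.39 to 1.66 CPM in control libraries. These are levels in whole fruit tissue, in which a lower share of cells that make a miRNA and less of it per cell cannot be told apart.

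None of the 6 was called as changed by drought. Of the 4 with enough counts to test (miR160a, miR390a-5p, miR390a-3p and miR390b-5p), 0 passed an adjusted p of 0.05 in edgeR's quasi-likelihood test with Benjamini-Hochberg adjustment over 99 tested miRNAs, where 20.2% of all tested miRNAs passed. At an unadjusted p under 0.05, reached by 34.3% of the 99, the count was also 0 of 4, and DESeq2 and limma-voom each called 0. The median log2 fold change, drought over control, was 0.43 over the 4 and 0.16 over all 99. miR390b-3p and miR393 had too few counts for the filter, with at least 10 counts in 0 and 1 of the 6 libraries. They are described from a fit without a filter over the 129 miRNAs with any count, of which 16.3% passed.

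**Figure D1:**
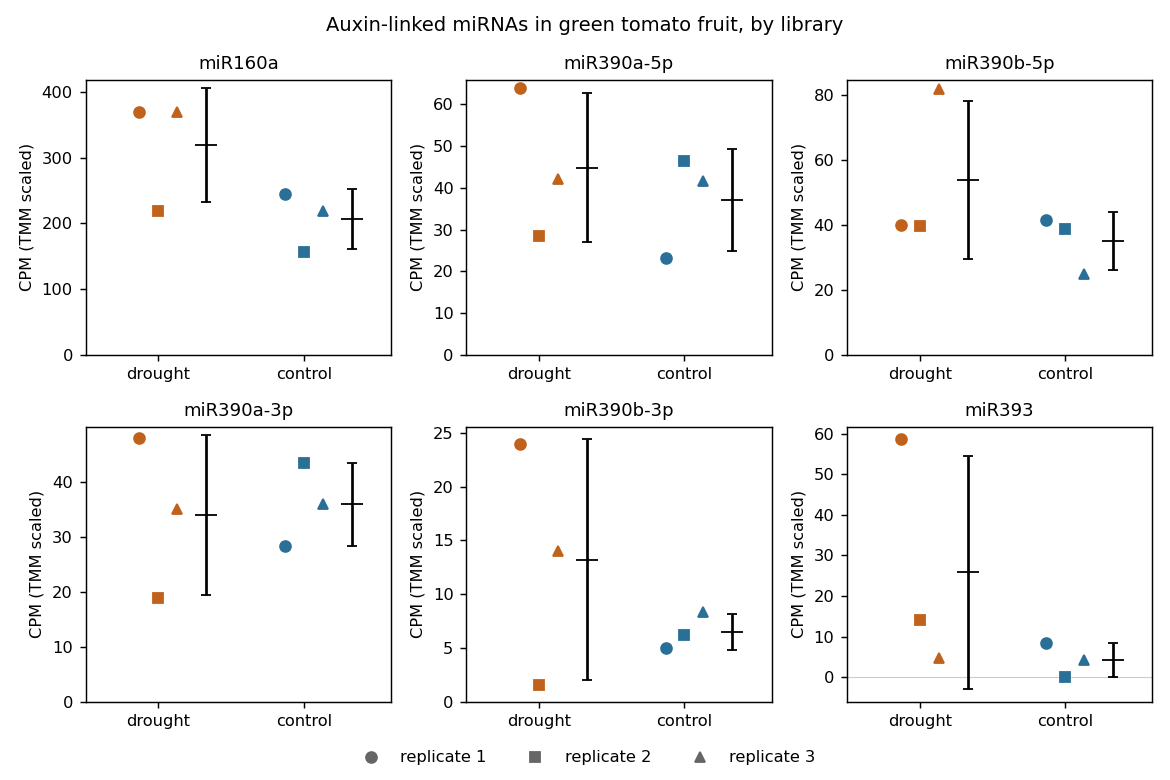
CPM (TMM scaled, linear axes that differ between panels) of each of the 6 miRNAs in each library, drought left of control; marker shapes give the replicate, and the black bar beside each group is its mean ± SD (n = 3). The groups overlap in every panel, and drought library 2 is the lowest drought library for 5 of the 6.

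miR160a, the repressor of ARF10-type factors, was the most abundant of the 6 in all 6 libraries and made up 53.7% to 69.7% of their counts. Its raw counts were 139, 139 and 158 in drought libraries 1 to 3, against 147, 101 and 158 in control libraries 1 to 3. The drought libraries thus gave about as many reads of it from smaller totals. Scaled, it stood at 370, 219 and 369 CPM in drought libraries, against 244, 156 and 219 CPM in control libraries. Drought libraries 1 and 3 were above every control library, while drought library 2 lay between the control libraries. The mean was 320 ± 86.8 CPM under drought and 207 ± 45.4 CPM in control (SD, n = 3 each). The log2 fold change was 0.63 ± 0.42 (SE), with a 95% interval of -0.30 to 1.55, and did not pass (edgeR adjusted p = 0.287). As a fold, the interval runs from 0.812 to 2.94, so it includes no change as well as a rise of more than 2-fold.

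How far apart the groups stood depended on how libraries were scaled. On library totals alone miR160a was at 314, 297 and 367 CPM under drought, against 222, 157 and 211 CPM in control, with no overlap. In the authors' deposited CPM, which use another set of scaling constants, it was at 357, 243 and 362 under drought, against 210, 163 and 233 in control, again with no overlap. This is a common pattern in the table: all drought libraries were above all control libraries for 25.3% of the tested miRNAs on library totals and for 22.2% on the deposited CPM, and 18.2% on the scale used for the tests. The spread within groups changed as well. The variance between libraries of a group was 9.75 times that of counting error with TMM scaling and 2.95 times with library totals. Under library totals the log2 fold change of miR160a was 0.73 and did not pass either (edgeR adjusted p = 0.260). The authors' deposited table gives a log2 fold change of 0.65 with an FDR-adjusted p of 0.466.

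**Figure D2:**
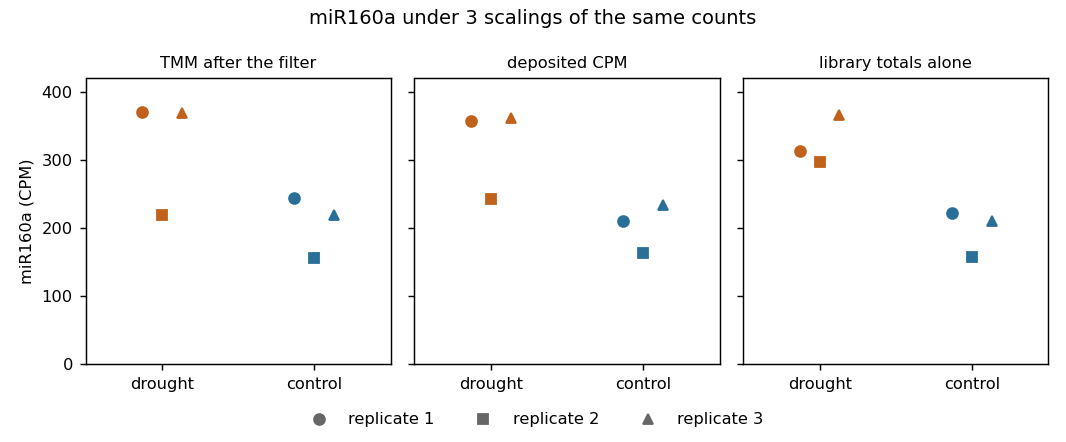
miR160a in CPM (linear axis from 0) in each library under 3 scalings of the same counts, drought left of control; marker shapes give the replicate. Drought library 2 lies among the control libraries after TMM scaling (219 CPM) and above all of them with the deposited constants (243) or library totals (297).

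miR390a and miR390b are made from separate precursors, and their 5p arms are the guide strands that act on TAS3. miR390a-5p had 24, 18 and 18 counts in drought libraries 1 to 3, against 14, 30 and 30 in control libraries 1 to 3. That was 63.9, 28.4 and 42.1 CPM under drought, against 23.3, 46.4 and 41.6 CPM in control. The groups overlapped, with the highest value in drought library 1 and the lowest in control library 1. The mean was 44.8 ± 17.9 CPM under drought and 37.1 ± 12.2 CPM in control (SD, n = 3 each). The log2 fold change was 0.25 ± 0.46 (SE; 95% interval -0.78 to 1.28; edgeR adjusted p = 0.705). Its sign rested on drought library 1, without which it was -0.04 (edgeR adjusted p = 0.986). Without control library 1 it was 0.008 (edgeR adjusted p = 0.998). 

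miR390b-5p, the other TAS3 trigger, had 15, 25 and 35 counts in drought libraries 1 to 3, against 25, 25 and 18 in control libraries 1 to 3. In CPM these were 39.9, 39.5 and 81.8 under drought, against 41.6, 38.7 and 24.9 in control. On this scale a single library, drought 3, stood above the rest, and the other drought libraries lay within the control range. Drought library 2 was also above all control libraries on library totals (53.3 against at most 38.8 CPM). The same was so in the deposited CPM (43.6 against at most 40.3), while drought library 1 stayed within the control range on both. With TMM scaling the mean was 53.7 ± 24.3 CPM under drought and 35.1 ± 8.88 CPM in control (SD, n = 3 each). The log2 fold change was 0.61 ± 0.45 (SE; 95% interval -0.39 to 1.62; edgeR adjusted p = 0.335). Without drought library 3 it was 0.24, with an edgeR adjusted p of 0.737.

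The 5p arms of miR390a and miR390b did not follow each other. Their log2 CPM values had a Pearson r of 0.01 over the 6 libraries, which share group and scaling. miR390b supplied 38.5%, 58.1% and 66.0% of the miR390 5p counts in drought libraries 1 to 3, against 64.1%, 45.5% and 37.5% in control libraries 1 to 3. The mean was 54.2% ± 14.2 under drought and 49.0% ± 13.7 in control (SD, n = 3 each; p = 0.7, two-sided exact permutation test, where 3 against 3 cannot go below 0.1). The sources used here do not give how reads matching both were assigned, and the members could trade counts. A sum does not depend on how shared reads were split, provided that each was counted once. Summed, the 5p arms had 98.5 ± 28.3 CPM under drought and 72.2 ± 11.2 CPM in control (SD, n = 3 each). The log2 fold change of the sum was 0.44 ± 0.38 (SE; 95% interval -0.42 to 1.30) and did not pass (edgeR adjusted p = 0.411 over 98 entries).

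The 3p arms are the strands opposite the guides and are not known to act on TAS3. miR390a-3p had 18, 12 and 15 counts in drought libraries 1 to 3, against 17, 28 and 26 in control libraries 1 to 3, or 47.9, 18.9 and 35.1 CPM under drought against 28.3, 43.3 and 36.0 CPM in control. The groups overlapped, with means of 34.0 ± 14.5 CPM under drought and 35.9 ± 7.53 CPM in control (SD, n = 3 each). The log2 fold change was -0.11 ± 0.46 (SE; 95% interval -1.13 to 0.91; edgeR adjusted p = 0.870), a sign that turned positive with upper-quartile scaling (0.11) or without drought library 2 (0.05) or control library 2 (0.11). miR390b-3p had 9, 1 and 6 counts in drought libraries 1 to 3, against 3, 4 and 6 in control libraries 1 to 3. Over the group sums of 16 and 13 counts, the ratio of scaled counts, drought over control, was 1.69 with an exact 95% interval of 0.761 to 3.81, counting error only. Its log2 fold change in the fit without a filter was 0.89 ± 0.87 (SE; edgeR adjusted p = 0.512). It rested on drought library 1, without which it was 0.09 (edgeR adjusted p = 0.971), and ran up to 1.32 in the other settings.

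The counts assigned to miR390a and miR390b differed in how they were divided between arms. Of the miR390a counts the 3p arm made up 42.9%, 40.0% and 45.5% in drought libraries 1 to 3, against 54.8%, 48.3% and 46.4% in control libraries 1 to 3. Of the miR390b counts it made up 37.5%, 3.85% and 14.6% under drought, against 10.7%, 13.8% and 25.0% in control. miR390a-3p had more counts than miR390b-3p in 6 of 6 libraries. Over all libraries the 3p share was 46.4% for miR390a (116 of 250 counts in all; exact Clopper-Pearson 95% interval 40.1% to 52.8%) and 16.9% for miR390b (29 of 172; 11.6% to 23.3%). These intervals cover counting error only, while the miR390b share ran from 3.85% to 37.5% between libraries. Libraries made by ligating adapters favour some RNA ends over others, and the part of that preference in the arm shares was not tested. The part of the unknown assignment of reads matching both miR390a and miR390b was not tested either. The log2 CPM values of the 5p and 3p arms of miR390a had a Pearson r of 0.84 over the 6 libraries, which share group and scaling. This was not particular to arms of 1 precursor: r was 0.91 between miR390a-5p and miR168a-5p and 0.93 between miR390a-3p and miR10530. Taken over both precursors, the 3p share was 30.8% ± 9.10 under drought and 36.9% ± 3.05 in control (SD, n = 3 each; p = 0.4, two-sided exact permutation test).

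**Figure D3:**
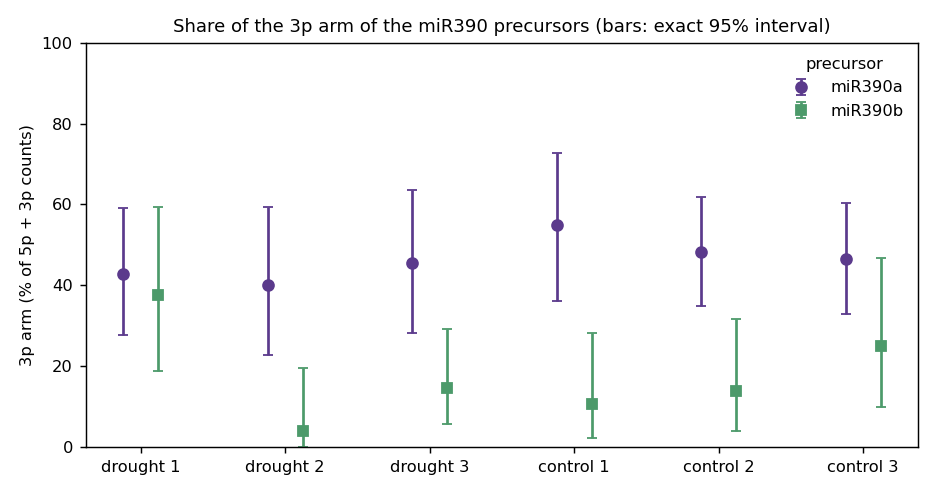
Share of the 3p arm among the 5p and 3p counts of miR390a (circles) and miR390b (squares) in each library, drought libraries left of control; the axis is percent and bars are exact 95% intervals for counting error. miR390a lies between 40.0% and 54.8% in every library and above miR390b in each, while miR390b ranges from 3.85% to 37.5%.

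As a family, the 4 miR390 entries had 66, 56 and 74 counts in drought libraries 1 to 3, against 59, 87 and 80 in control libraries 1 to 3. Scaled in the table of families, the miR390 family stood at 145 ± 53.7 CPM under drought and 116 ± 21.3 CPM in control (SD, n = 3 each). Its log2 fold change was 0.31 ± 0.47 (SE; 95% interval -0.63 to 1.24; edgeR adjusted p = 0.697). Of the 52 families tested, 30.8% passed.

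miR393, which acts on the auxin receptors, had the highest fold change of the 6 and also the fewest counts in control fruit. It had 22, 9 and 2 counts in drought libraries 1 to 3, against 5, 0 and 3 in control libraries 1 to 3. That was 58.6, 14.2 and 4.68 CPM under drought, against 8.31, 0 and 4.16 CPM in control, where the count of 0 in control library 2 allows up to 4.64 CPM. Drought libraries 1 and 2 were above all control libraries and drought library 3 was within their range, so the groups overlapped. Of the 33 drought counts, 22 came from library 1. The ratio of scaled counts between the group sums of 33 and 8 was 5.65 (exact 95% interval 2.56 to 14.2, counting error only). The libraries of a group varied more than that error: the variance between them was 8.6 times that of counting. In the fit without a filter the log2 fold change was 2.59 ± 0.99 (SE), with a 95% interval of 0.45 to 4.73 and an unadjusted p of 0.0211, and it did not pass over the 129 miRNAs (edgeR adjusted p = 0.0842). An unadjusted p under 0.05 was reached by 31.8% of those 129.

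Single libraries decided the call for miR393. Without drought library 1 it was 1.27 on the log2 scale, with an edgeR adjusted p of 0.568. Without drought library 2 it was 2.62 and passed (edgeR adjusted p = 0.00769), as it did without drought library 3, at 3.09 (edgeR adjusted p = 0.0109). Without control library 2, which had no count, it was 1.79 (edgeR adjusted p = 0.377). With library totals alone the log2 fold change was 2.59 and passed narrowly (edgeR adjusted p = 0.0456). It was positive in all 13 other settings and passed in these 3, with adjusted p from 0.00769 to 0.568 over the 13. The authors' deposited table gives a log2 fold change of 2.62, a p of 0.0230 and an FDR-adjusted p of 0.0707.

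**Figure D4:**
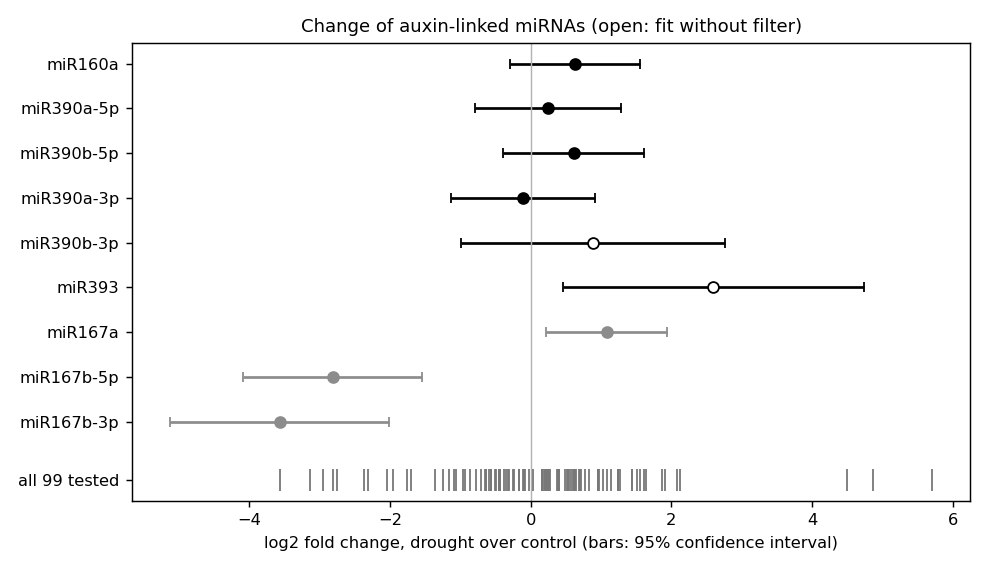
Log2 fold change, drought over control, of the 6 miRNAs (black) and the miR167 entries (grey), with 95% confidence intervals; open circles are from the fit without a filter, and the ticks at the bottom are all 99 tested miRNAs. The intervals of 5 of the 6 span 0, the exception being miR393 (0.45 to 4.73, unadjusted).

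The list of auxin-linked miRNAs used here, which need not be complete, also holds miR167. Of the 7 tested entries of the list (4 of the 6 above and 3 of miR167), 0 rose and 2 fell, beside 9.09% and 11.1% of all 99 tested miRNAs; both falls were arms of miR167b. The median log2 fold change of the 7 was 0.25. miR167b-5p had 1, 11 and 5 counts in drought libraries 1 to 3, against 33, 67 and 59 in control libraries 1 to 3 (log2 fold change -2.81, edgeR adjusted p = 0.00774), and miR167b-3p had 0, 6 and 5 against 49, 37 and 95 (-3.56, edgeR adjusted p = 0.00711). Without control library 2 miR167b-5p did not pass (edgeR adjusted p = 0.0560), and without drought library 2 its log2 fold change was -3.56. The abundant miR167a did not pass (log2 fold change 1.08, edgeR adjusted p = 0.0787) and lay at 6518, 9521 and 3329 CPM in drought libraries 1 to 3, against 3168, 3127 and 2873 CPM in control libraries 1 to 3. It passed in 3 of 14 other settings: with library totals (edgeR adjusted p = 0.0466), with upper-quartile scaling (0.0402) and without drought library 3 (0.0237). Over all libraries miR167a had 15901 counts, against 176 for miR167b-5p and 192 for miR167b-3p, so a sum of the family is mostly miR167a. Summed over its 3 entries, the miR167 family rose, with a log2 fold change of 0.94 ± 0.35 (SE; edgeR adjusted p = 0.0312 over the 52 families). That call held in 4 of 14 other settings, with adjusted p from 0.00326 to 0.464. Without drought library 2 the log2 fold change of the family was 0.41 (edgeR adjusted p = 0.464), and the call was also lost without drought library 1 (0.0549), control library 2 (0.219) or control library 3 (0.123).

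Ratios between these regulators within a library do not depend on the scaling of libraries. The pseudocount of 0.5 added to each count weighs more where counts are few, as for miR393. The log2 ratio of miR160a to miR167a was -4.13, -5.43 and -3.17 in drought libraries 1 to 3, against -3.69, -4.32 and -3.71 in control libraries 1 to 3. Drought library 2, which held the most miR167a and the least miR160a of the drought libraries, had the lowest ratio of all. The means were -4.25 ± 1.14 under drought and -3.91 ± 0.36 in control (SD, n = 3 each; p = 0.8, two-sided exact permutation test), and the difference of -0.34 became 0.25 without drought library 2. The log2 ratio of miR160a to miR393 was 2.63, 3.88 and 5.99 in drought libraries 1 to 3, against 4.75 and 5.50 in control libraries 1 and 3. In control library 2, with no miR393 count, it was at least 5.07, from 101 counts of miR160a and the limit of 3 counts. The difference of the group means depended on the pseudocount, which was added to every count and stands for that 0. This difference was -1.81 with 0.5 (p = 0.3, two-sided exact permutation test) and -0.79 with 5 (p = 0.4, exact permutation test). The log2 ratio of miR390a-5p to miR160a had means of -2.84 ± 0.30 under drought and -2.49 ± 0.81 in control (SD, n = 3 each; p = 0.6, two-sided exact permutation test). Over the 5 permutation tests of shares and ratios, the adjusted p was 0.8 for each, and 0.1 is the smallest unadjusted p that 3 against 3 allows.

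The order of levels was the same at its top in each library and mixed below it. miR160a ranked between position 55 and 69 among the 137 miRNAs of a library. miR390a-5p, miR390b-5p and miR390a-3p came next by their mean, at 40.9, 44.4 and 34.9 CPM over all libraries, with overlapping ranges. miR393 and miR390b-3p had the lowest means, at 15.0 and 9.84 CPM. The mean of miR393 was raised by drought library 1, where its 58.6 CPM was above the 47.9 CPM of miR390a-3p and the 39.9 CPM of miR390b-5p. A kit that ligates adapters recovers miRNAs unequally, so this order is that of the reads.

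Within the drought group, library 2 had the lowest scaled level for 5 of the 6, all but miR393. This was also so for 48.5% of all 99 tested miRNAs, and 25.3% on library totals, where it was the lowest for 4 of the 6. The same library held the highest level of miR167a.

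Across the 6 libraries the pattern of log2 CPM most like that of miR160a was that of miR482e-5p (Pearson r = 0.98), followed by miR7981e (0.93). For miR390a-5p these were miR168a-5p (0.91) and miR1916 (0.89), for miR390a-3p miR10530 (0.93) and miR168b-3p (0.90), and for miR390b-5p miR171b-3p (0.76) and miR399 (0.74). The 6 libraries share their group and scaling, so these values are a description. Among these, miR482e-5p (log2 fold change 1.51, edgeR adjusted p = 0.0428) and miR399 (2.08, edgeR adjusted p = 0.0123) rose under drought. miR168a-5p, miR1916, miR10530 and miR168b-3p, the nearest patterns to the miR390a arms, had log2 fold changes of 0.03, -0.08, 0.01 and -0.37 and did not pass.

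**Figure D5:**
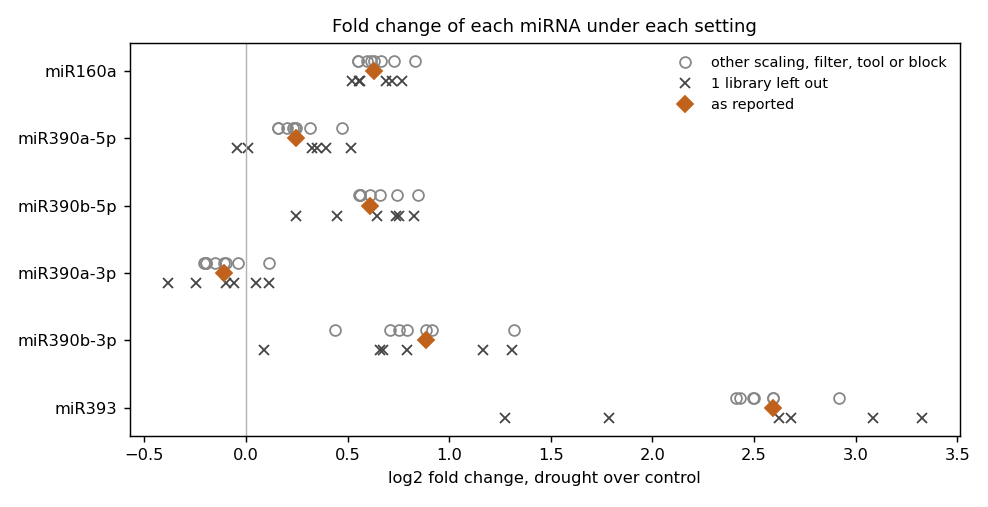
Log2 fold change, drought over control, of each of the 6 miRNAs as reported (diamonds), under other scalings, filters, tools or a replicate block (open circles) and with 1 library left out (crosses). miR160a stays between 0.52 and 0.83 and miR390b-5p between 0.24 and 0.84, miR390a-5p and miR390a-3p lie on both sides of 0, miR390b-3p ranges from 0.09 to 1.32, and miR393 ranges from 1.27 to 3.33.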

How the data were processed

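Small RNA libraries of green tomato fruit were made from 240 ng of total RNA with a kit that ligates adapters, per the labels' protocols. The authors deposited whole-number counts per mature miRNA, without normalization, for 3 drought and 3 control libraries. Per the file headers the table also holds CPM, used here as a score on its own scale, since each deposited value is the count over 1 constant per library, which is the library total multiplied by its TMM factor in the table without a filter, and the authors' own log2 fold changes and p-values, whose test is not named. Trimming, alignment, the build and the release of the miRNA database are steps that no header or label records. Coordinates and mature sequences were not used here.

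Samples were grouped by title. Counts were fitted with edgeR 4.0.16 in R 4.3.3 (filterByExpr with minimum count 10 and minimum total 15, TMM, robust quasi-likelihood fit, group as the only term), and p-values were adjusted over all tested miRNAs. Intervals of fold changes use the fit's standard error (fold change over the square root of F). Limits for a count of 0 are 3 counts. Families are sums over rows of the same number. Shares and ratios (pseudocount 0.5) were compared by exact permutation over 20 assignments with scipy 1.17.1. Intervals of shares and of ratios of counts, and the limits for a count of 0, cover counting error only and leave out the spread between libraries. PCR copies are not marked, so each read was treated as an independent count. Alternatives were DESeq2 1.42.0 (test and size factors), limma 3.58.1 voom, other scalings, no filter, a fit that is not robust, a replicate block, leaving out each library, pooled counts and a pseudocount of 5. Named miRNAs were the 6 members, all miR167 entries and, for each tested member, the 2 miRNAs with the highest Pearson correlation of log2 CPM (prior count 2). Members and lists were chosen with earlier results of these data known; the sums of miR390 arms, the comparison of arm shares between precursors and the other settings of the fit without a filter were added after seeing the data.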

Additional observations from a re-analysis of the deposited data

How the results depend on the processing

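The number of the 6 miRNAs that passed was 0 in the main edgeR fit and in each of its 14 alternatives, and miR393 passed only where the fit without a filter was combined with library totals or with leaving out drought replicate 2 or 3. miR160a, miR390b-5p, miR390b-3p and miR393 kept a positive log2 fold change in all settings run. The log2 fold change of miR390a-5p ran from -0.043 to 0.51 without 1 library and was negative without drought replicate 1. That of miR390a-3p ran from -0.39 to 0.11 and was positive without drought replicate 2 (0.05) or control replicate 2, and under upper-quartile scaling (0.11). Over all miRNAs, 9 rose and 11 fell. The rises were 16 with library totals and 16 with upper-quartile scaling, and from 4 to 20 without 1 library; the falls ran from 5 to 21. Of families 11 rose and 5 fell. With limma-voom 7 rose and 3 fell, the falls were 3 with library totals, 2 with upper-quartile scaling and 3 with no filter, and without 1 library the rises ran from 3 to 11 and the falls from 2 to 11. Over all tested miRNAs the median log2 fold change, 0.16, was 0.27 with library totals and 0.40 with upper-quartile scaling. The differences of drought minus control ran from -0.72 to 13.1 percentage points for the miR390b share of 5p counts without 1 library (5.19 with all; -0.57 without control replicate 3), from -11.1 to -2.25 for the 3p share (-6.06 with all), from -0.88 to 0.25 for the log2 ratio of miR160a to miR167a, from -2.72 to -0.96 for miR160a to miR393 (-1.81 with all, -0.79 with a pseudocount of 5) and from -0.78 to 0.021 for miR390a-5p to miR160a (-0.35 with all). The cause of these changes was not tested.

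Replicate numbers are shared between the groups. Deviations from the group mean correlated little between same-numbered libraries (r = 0.10, -0.24 and 0.01 over 99 miRNAs). With 3 libraries in each group, these values cannot settle whether the numbers pair them. With a replicate block 5 miRNAs rose and 7 fell, 4 families rose and 2 fell, 0 of the 6 passed, the rise of the miR167 family was lost (edgeR adjusted p = 0.135), and the log2 fold change of miR160a was 0.61 (edgeR adjusted p = 0.408). Depth limits miR390b-3p and miR393, with 29 and 41 counts in all libraries.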
